A study of Mus musculus with 24 samples.

Results

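The comparison set the 6 RNA-seq libraries of Mettl14cKO dorsal root ganglia against the 6 of wild type (WT), with the condition of the ganglia as a covariate, so that the naive and the lesioned ganglia count together. Members were all libraries of that assay: 6 Mettl14cKO and 6 WT libraries, out of 24 samples in the series. Of the 13291 genes tested, 461 were called with 6 against 6, and 297 of these (2.23%) were called in neither 3 against 3 comparison (naive alone or lesioned alone). Those 297 genes are what is described here, with the 164 (1.23%) called in both ways beside them.

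All mice were C57BL/6 per the labels, and the tissue was the L4/5 dorsal root ganglion, which holds the cell bodies of the sensory neurons of the sciatic nerve together with satellite glia, Schwann cells, fibroblasts and immune cells. The groups were Mettl14cKO SNLD1, read from the titles as day 1 after the nerve lesion, Mettl14cKO naive, WT SNLD1 and WT naive, with 3 libraries each; the treatment label names a sham operation or a crush of the nerve for every library, so whether naive ganglia had a sham operation is not settled. The genotype label of the knockout is Mettl14-/-, while the titles call it conditional. The labels used here name no Cre driver, no age and no deleted exon, and do not say which libraries come from separate animals, so p-values measure the spread between these libraries.

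METTL14 and METTL3 form the core of the enzyme complex that writes N6-methyladenosine (m6A) into messenger RNA, METTL14 as the part that holds the RNA and METTL3 as the catalytic part. Reader proteins of the YTH family bind m6A and influence the decay and translation of the marked transcript. FTO and ALKBH5 can remove the mark. In sensory neurons the modification has been studied in connection with the regrowth of cut axons.

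Library totals ran between 5707837 and 12639160 counts, and libraries of one group correlated at 0.967 to 0.984 (Spearman, across genes). Several libraries stood apart in transcripts of other cells. The summed level of 14 neutrophil markers was 1700 and 1970 CPM (counts scaled to a common library size) in WT naive library 2 and WT SNLD1 library 2, against 316 to 998 CPM in the Mettl14cKO libraries and 278 to 529 CPM in the other WT libraries. Y-linked transcripts were at 0.14 CPM or less in 3 Mettl14cKO and 2 WT libraries, and at 130 CPM or more in the other libraries. Below, each call was repeated 12 times, every time without 1 library, and once more without both WT libraries rich in neutrophil transcripts. In that last repeat 198 of the 297 genes were still called and all 297 kept their direction. The calls lost in it among genes named below were Mettl14, Elavl4, Slc7a5, Yars, Dnajb9, Xaf1, Igtp, Kcnk3, Fabp7, Ugt8a, Mt1, Fkbp5, Ctgf, Rasgrf1, Aox4, Adamts3, Sema5a, Il11ra1, Cox6a2, Mrpl35, Mrpl43, Cnst and Col28a1.

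With 6 against 6 libraries, 287 genes (2.16% of those tested) were higher and 174 (1.31%) lower in Mettl14cKO ganglia than in WT ganglia at an adjusted p under 0.05 (edgeR). Either direction together came to 3.47%. At SNLD1 alone, 126 were higher (0.948%) and 68 lower (0.512%), 1.46% in all. In naive ganglia alone, 23 were higher (0.173%) and 15 lower (0.113%), 0.286% in all. The median standard error of a log2 difference was 0.17 with 6 against 6, 0.24 at SNLD1 and 0.24 in naive ganglia. Genes called only with 6 against 6 numbered 175 higher (1.32%) and 122 lower (0.918%). A further 37 genes were called in a 3 against 3 comparison and not with 6 against 6.

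The genes called only with 6 against 6 had modest differences, with like medians in lesioned and naive ganglia. The class leaves out every gene called in a single condition, which removes large and one-sided differences in advance, so nothing is read from this. The difference was larger at SNLD1 for 117 of the 175 higher and 84 of the 122 lower genes, against 7888 of all 13291 genes. The 175 higher genes had a median log2 difference of 0.73, with 0.76 at SNLD1 and 0.70 in naive ganglia, and 126 of them differed by less than 2-fold. The 122 lower genes had a median of -0.59, with -0.64 at SNLD1 and -0.56 in naive ganglia, and 109 differed by less than 2-fold. Their sign was the same in both conditions for all 297, which the additive model favours by its construction. The Mettl14cKO and WT libraries did not overlap within either condition for 104 of the 175 and 71 of the 122, against 3.54% of all genes tested. For 70 and 48 of them the 6 libraries of each genotype did not overlap at all, against 2.18% of all genes; as the same libraries chose these genes, nothing is read from that. The difference of the genotype effect between conditions was called for 0 of 13291 genes (0%) by edgeR, with 492 at an unadjusted p under 0.05, for 0 by limma-voom and for 3 by DESeq2. Among the 164 genes called in both ways, the medians were 0.99 for the 112 higher and -0.85 for the 52 lower genes. Their medians were less alike between conditions: 1.20 at SNLD1 and 0.79 in naive ganglia for the higher genes, and -0.98 and -0.56 for the lower genes.

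**Figure D1:**
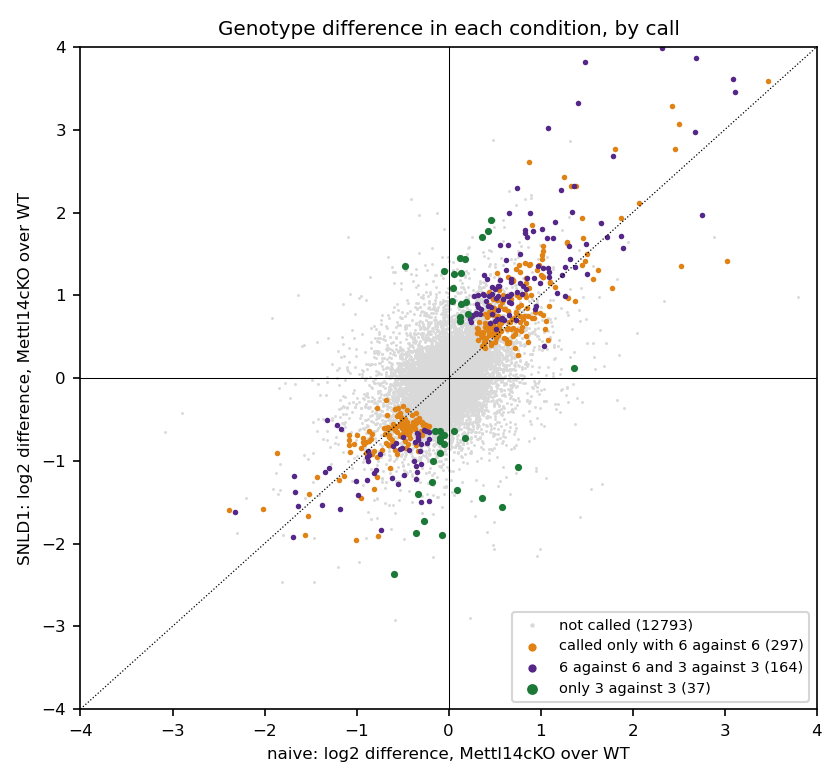
Log2 difference of Mettl14cKO over WT at SNLD1 (vertical axis) against naive (horizontal axis) for the genes tested, coloured by call, with the line of equal differences dotted; 10 genes lie outside the axes. The 297 genes called only with 6 against 6 (orange) gather near that line, while the 37 genes called only in a 3 against 3 comparison (green) lie away from it. The same libraries gave the calls that define these classes, so nothing is read from their places.

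Mettl14 itself (mm10, chr3:123368295-123385990) fell in Mettl14cKO ganglia and reached the threshold only with 6 against 6. At SNLD1 it had 14.2, 16.9 and 15.6 CPM in Mettl14cKO against 20.1, 20.7 and 19.4 CPM in WT ganglia. In naive ganglia it had 14.2, 18.9 and 15 CPM in Mettl14cKO against 23.3, 22.9 and 24.1 CPM in WT. All 6 Mettl14cKO libraries were below all 6 WT libraries. The log2 difference was -0.46 ± 0.12 (SE, adjusted p = 0.0404), that is 1.38-fold lower, and an exact permutation of genotype within condition gave p = 0.005 (two-sided), the smallest that its 400 assignments allow. The edgeR call passed in 2 of 12 repeats without 1 library, with the largest adjusted p of 0.114 without Mettl14cKO SNLD1 library 1, while the permutation p stayed between 0.005 and 0.01. The counts are given per gene symbol and the deleted part is not named, so reads of a transcript that lacks this part may be included. In whole ganglia, fewer cells of a type and less RNA per cell cannot be told apart, here or in any result below.

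Mettl3, the catalytic partner, had a lower level too. Its 6 values ran between 26.9 and 46.0 CPM in Mettl14cKO and between 44.0 and 54.4 CPM in WT ganglia. The groups overlapped through Mettl14cKO naive library 1, at 46.0 CPM. The log2 difference was -0.55 ± 0.13 (adjusted p = 0.0188), and the call passed in 11 of 12 repeats, with an adjusted p of 0.0544 without Mettl14cKO SNLD1 library 1. These were the only calls among 20 tested writers, erasers and readers (10%, against 3.47% of all genes). Fto, a demethylase, averaged 41.7 ± 13.3 CPM in Mettl14cKO and 29.1 ± 4.64 CPM in WT ganglia (SD, n = 6 each) and did not pass (adjusted p = 0.133). Mettl16, which methylates other RNAs, averaged 21.4 ± 4.58 CPM in Mettl14cKO and 27.8 ± 3.09 CPM in WT (adjusted p = 0.168). The remaining members had adjusted p-values between 0.259 and 0.948.

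The 3 neurofilament subunits fell together in Mettl14cKO ganglia, and the light and medium subunits, Nefl and Nefm, reached the threshold only with 6 against 6. Neurofilaments are the main intermediate filaments of large axons and set their calibre. Nefl had 836, 780 and 949 CPM in Mettl14cKO against 1610, 954 and 1730 CPM in WT ganglia at SNLD1. Its naive levels were 776, 840 and 863 CPM in Mettl14cKO and 1710, 1120 and 1610 CPM in WT. No Mettl14cKO library reached a WT library, although WT SNLD1 library 2 came close. The log2 difference of Nefl was -0.79 ± 0.14 (adjusted p = 0.00275), 1.73-fold lower.

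Nefm had 350, 292 and 368 CPM in Mettl14cKO against 511, 465 and 557 CPM in WT ganglia at SNLD1. In naive ganglia it had 422, 330 and 390 CPM in Mettl14cKO and 710, 501 and 649 CPM in WT. Again the 6 libraries of each genotype did not overlap, and the log2 difference was -0.65 ± 0.11 (adjusted p = 0.00238). The heavy subunit, Nefh, was lower by 0.83 ± 0.10 on the log2 scale and was also called in both 3 against 3 comparisons. All 3 calls passed in 12 of 12 repeats. The other 8 tested intermediate filament genes were not called, and the median of the 11 was -0.19 against -0.0011 for all genes. The 3 calls made 27.3% of that list, against 1.31% of all genes called lower. The summed level of 19 pan-neuronal markers, which include these 3 genes, was 13100 to 15800 CPM in Mettl14cKO and 15500 to 18200 CPM in WT libraries; its part in the neurofilament result was not tested.

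**Figure D2:**
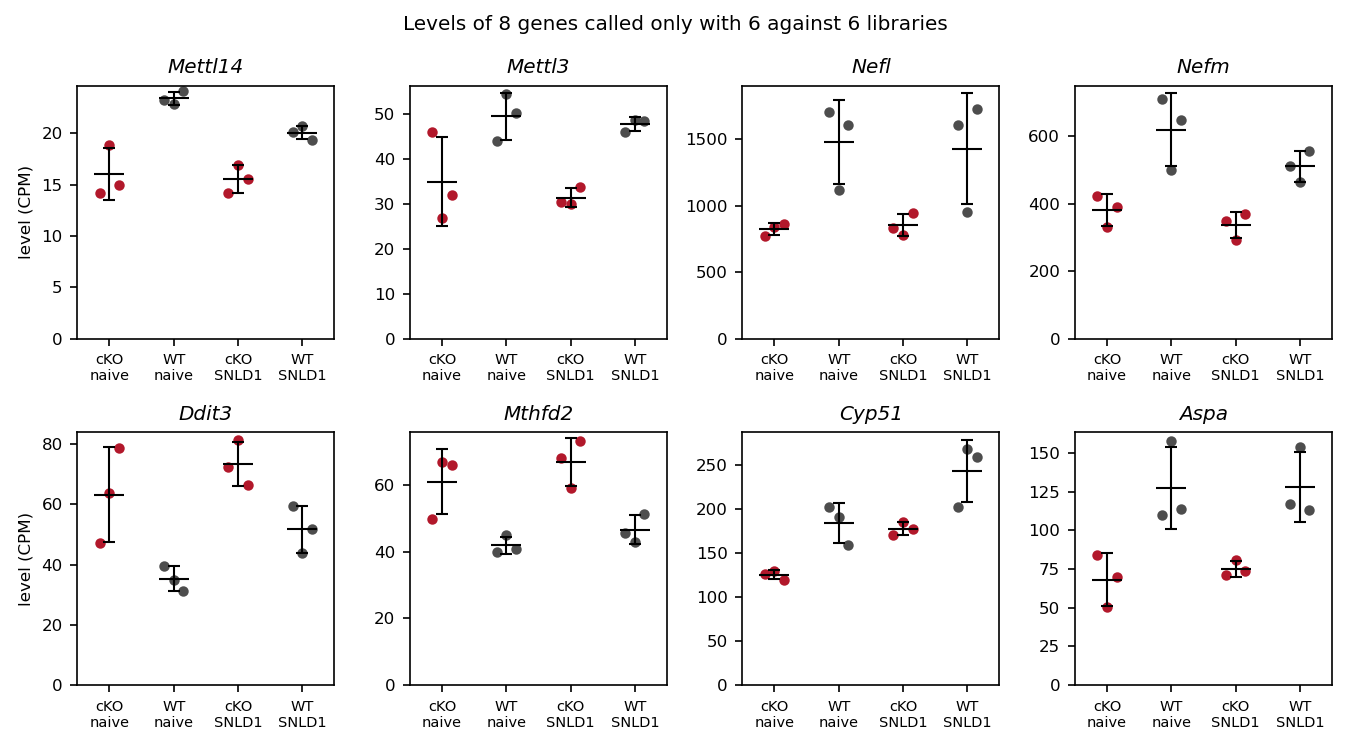
Level in CPM of 8 genes called only with 6 against 6, for each library (points) with the mean and SD of 3 (bars), in Mettl14cKO (red) and WT (grey), naive and SNLD1. Nefl, Nefm and Mettl14 are lower in all 6 Mettl14cKO libraries, Ddit3 and Mthfd2 are higher in Mettl14cKO within each condition, and Cyp51 and Aspa are lower within each condition.

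Nefl and Nefm are also among the genes of this class with the most single-base m6A sites. In the WT miCLIP lists, a method that reads a mutation where an m6A antibody was crosslinked, 18 sites fell in Nefl (chr14:68083863-68089095), 9 of them in both the naive and the SNL list. Nefm (chr14:68119545-68125004) held 28 sites, 12 of them in both lists. Of the lower genes of this class 41.3% held a site, against 43.5% of all genes tested. In the quartile of highest level, where both genes lie, 57.6% of all genes tested did. A link between the sites and the lower levels was not tested. The 5 bases around 3 sites of each gene are shown as examples of sites in both lists. The methylated adenine is in capitals, and positions are mm10 on the strand of the gene.
Nefl, base 68086686 of chromosome 14: agAcc
Nefl, base 68084911 of chromosome 14: agAcc
Nefl, base 68086050 of chromosome 14: ggAcc
Nefm, base 68120971 of chromosome 14: agAcc
Nefm, base 68124158 of chromosome 14: ggAca
Nefm, base 68122842 of chromosome 14: ggAca
At the first Nefl site, 3 of 39 reads were mutated in the SNL list and 5 of 36 in the naive list. The first Nefm site had 2 of 37 and 3 of 41 mutated reads in the same lists. All 6 hold the letters GAC, which are shared by 82% of the sites in tested genes. Each list comes from 1 WT library, with no replicate and no Mettl14cKO counterpart.

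In the lists of pan-neuronal markers and of sensory channels and receptors, all calls were lower, while other lists with neuronal genes, such as potassium channels, held higher calls (below). Elavl4, a neuronal RNA-binding protein, averaged 933 ± 141 CPM in Mettl14cKO and 1230 ± 138 CPM in WT (SD, n = 6 each), a log2 difference of -0.41 ± 0.11 (adjusted p = 0.0416); its call passed in 3 of 12 repeats and was lost without both neutrophil-rich libraries (adjusted p = 0.106). With the neurofilaments this made 4 of 19 pan-neuronal markers lower (21.1%, against 1.31% of all genes), and the list's median was -0.17. Ret, the signalling receptor for the GDNF family, ran between 89.0 and 127 CPM in Mettl14cKO and between 118 and 189 CPM in WT (log2 difference -0.49 ± 0.13, adjusted p = 0.0393, called only with 6 against 6, 4 of 12 repeats, at most 0.123 without Mettl14cKO SNLD1 library 1). Lower and called in both ways were Gfra1, a co-receptor of Ret, and the itch receptor Mrgpra3 (9 and 5 of 12 repeats, at most 0.0775 without Mettl14cKO SNLD1 library 1 and 0.0928 without WT naive library 1). In all, 4 of 39 sensory channels and receptors were lower (10.3%, against 1.31% of all genes) and 0 higher, with a median of -0.14 and 28 members below 0.

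Npy, a neuropeptide induced in injured sensory neurons, was the single call among 32 regeneration-associated genes (3.12%, near the 3.47% of all genes). Npy had 1.60, 2.96 and 0.982 CPM in Mettl14cKO against 7.97, 3.43 and 9.64 CPM in WT ganglia at SNLD1. In naive ganglia it had 0.747, 1.22 and 1.12 CPM in Mettl14cKO and 0.484, 3 and 5.47 CPM in WT, with overlap through WT naive library 1. Its log2 difference was -1.75 ± 0.43 (adjusted p = 0.0282), and the call passed in 7 of 12 repeats, with an adjusted p of 0.0887 without WT SNLD1 library 3. Of the 32 genes, 27 were below 0, with a median of -0.26, while 50.2% of all genes tested were below 0. The mean level of this list varied between libraries of a group with an SD of 0.211 on the log2 scale. Among 52 kinesins and dyneins, the axonal motors Kif21a and Kif5b were lower and called in both ways (3.85%, near the 3.47% of all genes). Their calls passed in 11 and 6 of 12 repeats (at most 0.0701 and 0.0973, both without Mettl14cKO SNLD1 library 1). None of 24 microtubule-associated proteins or 35 synaptic vesicle genes was called, although Mapt (adjusted p = 0.0438) and Vamp1 (adjusted p = 0.0122) passed, lower, without both neutrophil-rich libraries.

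Among targets of ATF4, the transcription factor of the integrated stress response, 5 of 22 tested members rose (22.7%, against 2.16% of all genes called higher) and 0 fell; the others did not pass. Ddit3, Mthfd2 and Slc7a5 were called only with 6 against 6, and Nupr1 and Fgf21 in both ways. The median of the list was 0.35, with 0.32 at SNLD1 and 0.38 in naive ganglia, and 19 of 22 members were above 0 against 49.8% of all genes. Ddit3, which encodes the stress factor CHOP, had 72.3, 81.3 and 66.5 CPM in Mettl14cKO against 59.5, 43.8 and 51.7 CPM in WT ganglia at SNLD1. Its naive levels were 47.1, 63.7 and 78.8 CPM in Mettl14cKO and 39.5, 34.9 and 31.2 CPM in WT. The genotypes did not overlap within a condition, and the log2 difference was 0.68 ± 0.14 (adjusted p = 0.00771).

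Mthfd2, a mitochondrial enzyme of one-carbon metabolism, had 68.4, 59.3 and 73.4 CPM in Mettl14cKO against 45.7, 43.0 and 51.4 CPM in WT ganglia at SNLD1. In naive ganglia it had 49.8, 67.2 and 66.2 CPM in Mettl14cKO and 40.0, 45.0 and 41.0 CPM in WT. The log2 difference was 0.53 ± 0.11 (adjusted p = 0.00988), and both this call and that of Ddit3 passed in 12 of 12 repeats. Slc7a5, a transporter of large neutral amino acids, averaged 3.55 ± 0.685 CPM in Mettl14cKO and 1.80 ± 0.466 CPM in WT (SD, n = 6 each), with no overlap of the 6 libraries (log2 difference 0.98 ± 0.25, adjusted p = 0.0304). Its call passed in 6 of 12 repeats, with an adjusted p of 0.0816 without Mettl14cKO SNLD1 library 1, and was lost without both neutrophil-rich libraries (adjusted p = 0.0702). Yars, the cytosolic tyrosyl-tRNA synthetase, was the single call among 20 such synthetases (5.00%, against 2.16% of all genes called higher), higher by 0.47 ± 0.12 on the log2 scale (adjusted p = 0.032, 4 of 12 repeats, at most 0.0891 without Mettl14cKO SNLD1 library 1).

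The letters TGATGNAA, read on both strands, form the core of ATF4 binding elements and occurred in 1273 of 32544 RefSeq promoter windows of 300 bases around a gene start (3.91%, GRCm38.p6). Among the ATF4 targets 21 genes had a window, and 7 genes held the letters: Asns, Chac1, Fgf21, Nupr1, Pck2, Slc7a11 and Vldlr. Of the 5 called genes, Nupr1 and Fgf21 held them. Their windows are shown because both genes rose, with the match in capitals; the letters read on the strand opposite to each gene.
Fgf21, chr7:45615441-45615740, minus strand: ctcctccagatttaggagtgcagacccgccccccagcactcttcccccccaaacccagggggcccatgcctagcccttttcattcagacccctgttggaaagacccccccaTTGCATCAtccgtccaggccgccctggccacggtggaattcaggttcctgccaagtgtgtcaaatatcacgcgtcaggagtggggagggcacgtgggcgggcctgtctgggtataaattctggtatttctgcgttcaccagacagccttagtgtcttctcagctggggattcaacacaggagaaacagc
Nupr1, chr7:126625421-126625720, minus strand: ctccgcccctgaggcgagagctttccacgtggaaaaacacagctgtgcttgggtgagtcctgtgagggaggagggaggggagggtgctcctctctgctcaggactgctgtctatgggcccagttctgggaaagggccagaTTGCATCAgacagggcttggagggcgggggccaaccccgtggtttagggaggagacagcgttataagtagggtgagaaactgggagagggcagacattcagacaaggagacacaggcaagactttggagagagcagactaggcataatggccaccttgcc
The match begins 139 bases before the start of Fgf21 and 110 bases before that of Nupr1. No match was found in the windows of Ddit3, Mthfd2 and Slc7a5, which says only that these letters are not in them. Nupr1 had 71.8, 99.8 and 47.1 CPM in Mettl14cKO against 26.8, 42.3 and 32.2 CPM in WT ganglia at SNLD1, and 49.6, 49.4 and 32.4 CPM in Mettl14cKO against 33.9, 30.7 and 30.1 CPM in WT in naive ganglia. Its log2 difference was 0.79 ± 0.18 (adjusted p = 0.0194, 9 of 12 repeats, at most 0.0646 without WT SNLD1 library 3). Fgf21, a secreted stress hormone, ran between 1.20 and 3.09 CPM in Mettl14cKO and between 0 and 0.307 CPM in WT libraries.

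Of 25 cholesterol synthesis genes, 2 fell, both only with 6 against 6. Cyp51, lanosterol demethylase, had 171, 185 and 178 CPM in Mettl14cKO against 203, 269 and 259 CPM in WT ganglia at SNLD1, and 126, 130 and 120 CPM in Mettl14cKO against 203, 191 and 159 CPM in WT in naive ganglia. The genotypes did not overlap within a condition (log2 difference -0.50 ± 0.10, adjusted p = 0.009, 12 of 12 repeats). Sqle, squalene epoxidase, averaged 272 ± 46.5 CPM in Mettl14cKO and 382 ± 88.1 CPM in WT (SD, n = 6 each; log2 difference -0.49 ± 0.12, adjusted p = 0.0268), and its call passed in 6 of 12 repeats, with an adjusted p of 0.0879 without WT SNLD1 library 3. They made 8% of the list, against 1.31% of all genes called lower. In the list 23 genes were below 0, with a median of -0.24, while 50.2% of all genes tested were below 0.

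**Figure D3:**
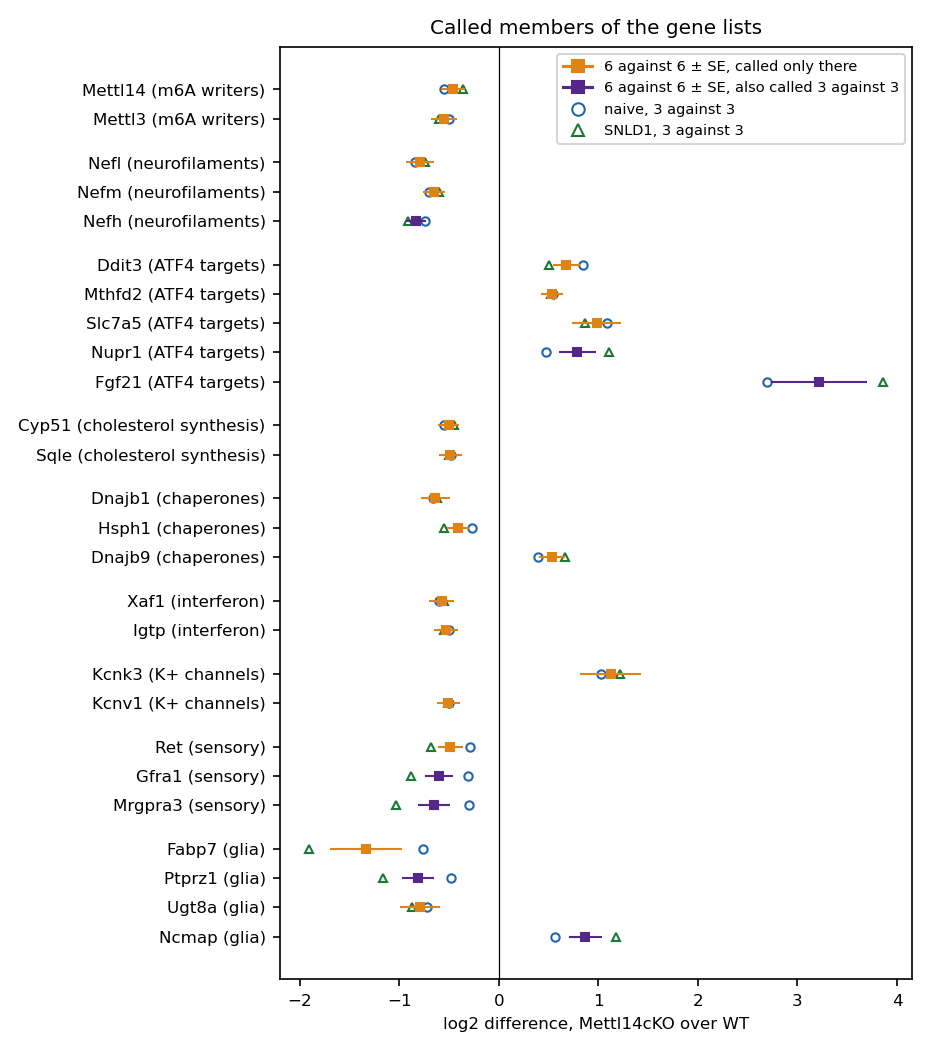
Log2 difference of Mettl14cKO over WT for members called in 9 groups of genes: squares with bars give 6 against 6 with its SE, circles the naive and triangles the SNLD1 comparison. For Nefm (-0.60 and -0.70), Cyp51 and Mthfd2 the SNLD1 and naive values lie close together, and for Fabp7 (-1.91 and -0.76) they lie apart.

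Chaperones moved both ways. Dnajb1, a heat-inducible partner of HSP70, had 44.2, 44.5 and 37.7 CPM in Mettl14cKO against 78.6, 45.5 and 70.5 CPM in WT ganglia at SNLD1, and 35.6, 43.5 and 36.0 CPM in Mettl14cKO against 67.3, 43.4 and 70.8 CPM in WT in naive ganglia. Library 2 of WT was the lowest in both conditions and met the Mettl14cKO range in the naive one. Its log2 difference was -0.64 ± 0.15 (adjusted p = 0.0174), and the call passed in 9 of 12 repeats, failing without WT naive library 1, WT SNLD1 library 1 or WT SNLD1 library 3 (adjusted p = 0.0545 to 0.0574). Hsph1, an HSP70 exchange factor, was lower by 0.41 ± 0.11 on the log2 scale with no overlap of the 6 libraries, but passed in 2 of 12 repeats (at most 0.118 without WT SNLD1 library 1). Dnajb9, a chaperone of the endoplasmic reticulum, was higher by 0.53 ± 0.13 (7 of 12 repeats, at most 0.0846 without Mettl14cKO SNLD1 library 1). These 3 of 30 tested genes (10%, against 3.47% of all genes) were all called only with 6 against 6.

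Interferon-related genes gave calls in both directions. Xaf1, an apoptosis-promoting interferon target, had 63.2, 84.0 and 53.0 CPM in Mettl14cKO against 107, 113 and 74.4 CPM in WT ganglia at SNLD1, and 44.8, 37.4 and 41.5 CPM in Mettl14cKO against 61.0, 67.5 and 59.2 CPM in WT in naive ganglia (log2 difference -0.58 ± 0.13, adjusted p = 0.0165, 11 of 12 repeats). Igtp, an immunity-related GTPase, was lower by 0.53 ± 0.12 on the log2 scale (adjusted p = 0.0198, 11 of 12 repeats). The genotypes did not overlap in naive ganglia for Xaf1 or within either condition for Igtp. Each call was lost without Mettl14cKO SNLD1 library 1 (adjusted p = 0.052 for Xaf1 and 0.0548 for Igtp) and without both neutrophil-rich libraries (0.0545 for Xaf1 and 0.0678 for Igtp). They were the only calls among 28 interferon-stimulated genes (7.14%, against 1.31% of all genes called lower), whose median was 0.03. Gbp3, a guanylate-binding protein, was higher by 0.58 ± 0.14 (adjusted p = 0.0217, 7 of 12 repeats, at most 0.0676 without Mettl14cKO SNLD1 library 1), beside its neighbour Gbp2b, which ran between 18.1 and 42.5 CPM in Mettl14cKO and between 0 and 0.532 CPM in WT. Guanylate-binding proteins are close copies of one another, so reads may be split between them.

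Ion channels gave calls in both directions. Kcnk3, a background leak channel, was higher by 1.12 ± 0.31 (adjusted p = 0.0479, 3 of 12 repeats, at most 0.141 without Mettl14cKO naive library 3). Kcnv1, an electrically silent channel subunit, ran between 29.2 and 35.9 CPM in Mettl14cKO and between 39.2 and 51.3 CPM in WT, with no overlap (log2 difference -0.51 ± 0.11, adjusted p = 0.0159, 12 of 12 repeats). Kcnj13, an inward rectifier, was higher and called in both ways. In all, 3 of 57 potassium channel genes were higher and 1 lower (7.02%, against 3.47% of all genes). Gabra4, a GABA receptor subunit, was the single call among 37 transmitter receptor subunits (2.70%, near the 2.16% of all genes called higher), higher by 1.13 ± 0.30 (adjusted p = 0.0458, 3 of 12 repeats, at most 0.121 without Mettl14cKO naive library 3).

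In the large families that follow, the shares of calls were near or below the 3.47% of all genes. They were 3.90% for mitochondrial ribosomal proteins and 1.23% for oxidative phosphorylation subunits. Of 306 Zfp genes, 3 were higher and 1 lower, all called only with 6 against 6 (1.31%): Zfp286, Zfp37 and Zfp784 were higher, and Zfp931 was lower. The higher calls passed in 11, 4 and 3 of 12 repeats, with adjusted p-values of at most 0.0547 without WT naive library 1, 0.128 without WT SNLD1 library 3 and 0.106 without Mettl14cKO SNLD1 library 1. Zfp931 ran between 4.44 and 7.32 CPM in Mettl14cKO and between 8.59 and 11.6 CPM in WT (log2 difference -0.87 ± 0.17, adjusted p = 0.00632, 12 of 12 repeats). Among 77 mitochondrial ribosomal proteins, Mrpl43 was higher and Mrpl35 lower, both only with 6 against 6 (1 and 7 of 12 repeats, at most 0.134 and 0.0661 without Mettl14cKO SNLD1 library 1), and Mrpl46 was higher in both ways. Of 81 subunits of oxidative phosphorylation, Cox6a2 alone was called, higher by 1.01 ± 0.27, and its call passed in 1 of 12 repeats (at most 0.12 without Mettl14cKO SNLD1 library 1). Its levels were low, 1.79 to 2.49 CPM in Mettl14cKO and 0.801 to 1.26 CPM in WT. None of 76 cytoplasmic ribosomal protein genes passed the edgeR threshold. Of these, 74 were above 0, against 49.8% of all genes, with a median of 0.29 that was 0.48 at SNLD1 and 0.13 in naive ganglia. The mean level of this list varied between libraries of a group with an SD of 0.305 on the log2 scale. Its members share that variation, so the 74 genes are not separate results. Rps12, the member of smallest p, averaged 63.5 ± 26.8 CPM in Mettl14cKO and 39.7 ± 3.25 CPM in WT (adjusted p = 0.0669). No member of 42 translation factors was called.

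The remaining lists added single genes. Only with 6 against 6, Sema5a, a guidance cue, was lower among 39 axon guidance genes (-0.55 ± 0.15 on the log2 scale, 3 of 12 repeats, at most 0.114 without Mettl14cKO SNLD1 library 1), and Ccl28, a chemokine, was higher among 55 cytokine genes (1.97 ± 0.46, 10 of 12 repeats, at most 0.0651 without Mettl14cKO naive library 2). Sema5a was the single call of its list (2.56%, against 1.31% of all genes called lower). Ccl28 had low levels, 0.355 to 3.32 CPM in Mettl14cKO and 0.0967 to 0.801 CPM in WT. With Il11ra1, the cytokine list held 2 higher calls (3.64%, against 2.16% of all genes called higher). Called in both ways and higher were Edem1 of endoplasmic reticulum quality control, the protocadherin Pcdh20 and the smooth muscle gene Tagln, each in 12 of 12 repeats. The interleukin receptor gene Il11ra1 and the replication factor subunit Rfc3 were called likewise but passed in 3 and 2 of 12 repeats (at most 0.135 and 0.142, both without WT SNLD1 library 3). Of 16 retinoid genes, the carrier Rbp4 and the retinoic acid hydroxylase Cyp26b1 were higher and Rbp7 lower, all called in both ways (18.8%, against 3.47% of all genes). No call with 6 against 6 fell among 18 immediate-early genes, 14 calcium channel subunits or 11 olfactory receptors; the members of smallest p were Egr2, Cacng5 and Olfr78, with adjusted p-values of 0.169, 0.334 and 0.0738. Egr2 passed, lower, without both neutrophil-rich libraries (adjusted p = 0.0274). Markers of T and B cells, skeletal muscle, oligodendrocytes and erythrocytes and Y-linked genes, with 2 to 5 tested members each, held no call either.

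**Figure D4:**
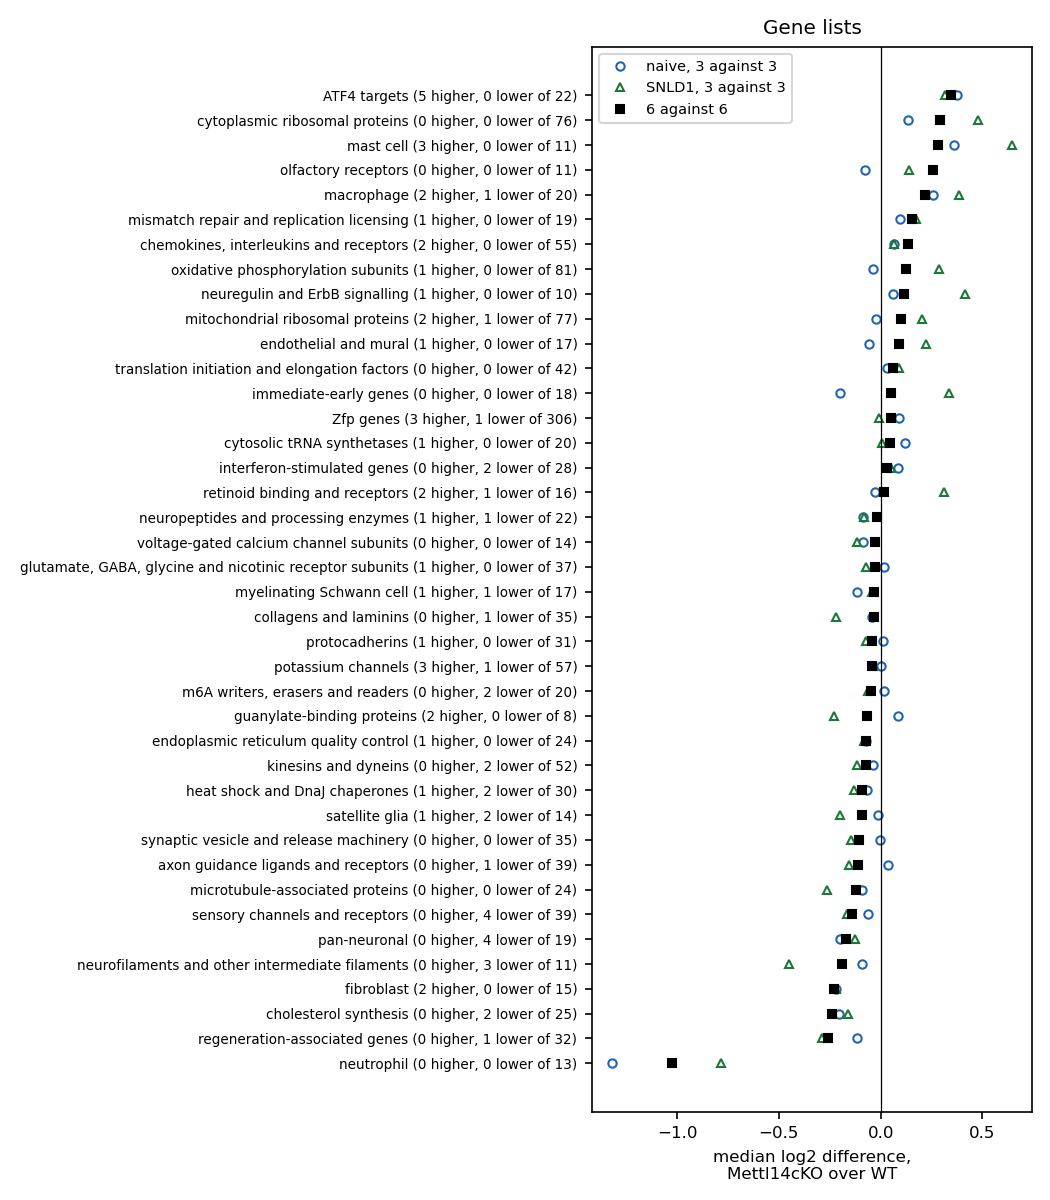
Median log2 difference of Mettl14cKO over WT for the tested members of each gene list with at least 8 of them, in the 6 against 6 (squares), naive (circles) and SNLD1 (triangles) comparisons; the labels give the calls with 6 against 6. With 6 against 6, ATF4 targets have the highest median, at 0.35, and neutrophil markers the lowest, at -1.02 with no call; at SNLD1 the medians of mast cell markers (0.65) and cytoplasmic ribosomal proteins (0.48), among others, exceed that of ATF4 targets (0.32).

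Among non-neuronal markers, the Schwann cell, satellite glia and macrophage lists held calls in both directions, and the mast cell, fibroblast and endothelial lists held higher calls only. Fabp7, a fatty acid-binding protein of satellite glia, had 303, 229 and 362 CPM in Mettl14cKO against 1080, 1470 and 812 CPM in WT ganglia at SNLD1. In naive ganglia it had 1590, 181 and 413 CPM in Mettl14cKO and 984, 1630 and 1080 CPM in WT. Mettl14cKO naive library 1 lay within the WT range, and the other 5 Mettl14cKO libraries lay below it. The log2 difference was -1.33 ± 0.36 (adjusted p = 0.0487), and the call passed in 2 of 12 repeats (at most 0.13 without Mettl14cKO SNLD1 library 1). Ptprz1, a receptor phosphatase, was lower and called in both ways. In all, 1 of 14 satellite glia markers was higher and 2 were lower (21.4%, against 3.47% of all genes). Their summed level was 1570 to 3010 CPM in Mettl14cKO and 2240 to 3090 CPM in WT libraries. Fabp7 alone averaged 512 CPM of it in Mettl14cKO and 1180 CPM in WT. The median log2 difference of the list was -0.09, with 4 members above 0 and 10 below.

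Ugt8a, an enzyme of myelin lipid synthesis, was lower only with 6 against 6, at 27 ± 8.79 CPM in Mettl14cKO and 46.7 ± 14.4 CPM in WT (SD, n = 6 each; adjusted p = 0.0321, 4 of 12 repeats, at most 0.0833 without WT naive library 1), while Ncmap, a myelin protein, was higher. Among macrophage markers Cd68 was higher only with 6 against 6 (20.1 ± 6.51 CPM in Mettl14cKO and 12 ± 3.41 CPM in WT, adjusted p = 0.0474, 4 of 12 repeats, at most 0.131 without WT SNLD1 library 3), Cd163 was higher and Fcrls lower in both ways. The summed macrophage level was 257 to 425 CPM in Mettl14cKO and 246 to 323 CPM in WT libraries. Mast cell markers were higher in 3 of 11 cases (27.3%, against 2.16% of all genes called higher): Cpa3 only with 6 against 6 (9.27 ± 3.22 CPM in Mettl14cKO and 4.85 ± 1.60 CPM in WT, adjusted p = 0.0489, 3 of 12 repeats, at most 0.128 without WT SNLD1 library 3), and the tryptase Tpsab1 and the IgE receptor chain Fcer1a in both ways (12 and 5 of 12 repeats, Fcer1a at most 0.111 without WT SNLD1 library 3, at low levels of 0.698 to 3.66 CPM in Mettl14cKO and 0.366 to 0.955 CPM in WT). Their summed level was 55.2 to 115 CPM in Mettl14cKO and 49.6 to 83.8 CPM in WT libraries. Fibroblast markers held 2 higher genes called in both ways, Dcn and Pdgfra (13.3%, against 2.16% of all genes called higher). Of the 15 tested, 7 were above 0 and 8 below, with a median of -0.23. Their summed level was 2140 to 4510 CPM in Mettl14cKO and 1890 to 2460 CPM in WT libraries, of which Dcn gave most. None of 13 tested neutrophil markers was called by edgeR; 12 were below 0, with a median of -1.02. Mpo, the member of smallest p, had up to 53.9 CPM in WT naive library 2 (adjusted p = 0.0617). The part of cell composition in the other calls was not tested.

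Beyond the lists, the genes of this class with the smallest p-values had 12 of 12 repeats behind them. Aspa, which breaks down N-acetylaspartate in myelinating cells, had 70.9, 80.6 and 73.8 CPM in Mettl14cKO against 117, 154 and 113 CPM in WT ganglia at SNLD1, and 84.4, 50.3 and 70.1 CPM in Mettl14cKO against 110, 158 and 114 CPM in WT in naive ganglia. Aspa had a log2 difference of -0.83 ± 0.14 (adjusted p = 0.00162), with no overlap of the 6 libraries. Timm8a1, a mitochondrial import chaperone, ran between 157 and 230 CPM in Mettl14cKO and between 111 and 146 CPM in WT (log2 difference 0.62 ± 0.10, adjusted p = 0.00238). Dock9, an activator of the GTPase CDC42, ran between 29.7 and 36.9 CPM in Mettl14cKO and between 18.4 and 23.3 CPM in WT (log2 difference 0.63 ± 0.11, adjusted p = 0.00345). Camk2n1, an inhibitor of the kinase CaMKII, ran between 16.3 and 28.0 CPM in Mettl14cKO and between 10.9 and 15.3 CPM in WT (log2 difference 0.77 ± 0.15, adjusted p = 0.00561). Cyp2d22, Rnmtl1 and Epb4.1l4b were higher, and Ankrd29, Slc7a7 and Cmtm5 lower, with log2 differences between -0.68 and 0.87.

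The largest increases of the class included genes with a wide spread between libraries. Morf4l1-ps1, a pseudogene that can share reads with its parent gene, ran between 0.701 and 32.9 CPM in Mettl14cKO and between 0.304 and 1.64 CPM in WT; Mettl14cKO library 3 lay within the WT range in both conditions. Inmt, an amine N-methyltransferase, ran between 7.75 and 38.6 CPM in Mettl14cKO and between 3.5 and 9.82 CPM in WT (log2 difference 1.69 ± 0.33, adjusted p = 0.00643, 12 of 12 repeats). Mt1, a metallothionein that binds zinc, had 318, 585 and 154 CPM in Mettl14cKO against 132, 145 and 133 CPM in WT ganglia at SNLD1, and 163, 196 and 90.4 CPM in Mettl14cKO against 80.4, 77.5 and 106 CPM in WT in naive ganglia (log2 difference 1.07 ± 0.24, adjusted p = 0.0172, 10 of 12 repeats, at most 0.0558 without WT SNLD1 library 3). Fkbp5, a chaperone induced by glucocorticoids, was higher by 0.93 ± 0.25 (adjusted p = 0.0471, 3 of 12 repeats, at most 0.127 without the same library). The matricellular gene Ctgf was higher by 1.12 ± 0.27 (9 of 12 repeats, at most 0.0797 without Mettl14cKO naive library 2). Others of this kind that were higher were Fam107a, Serpina3c, Cxx1b, Xdh, Lbh and Rasgrf1, with log2 differences between 0.93 and 1.31. Of these, Serpina3c passed in 6 (at most 0.125 without Mettl14cKO naive library 2), Rasgrf1 in 5 (at most 0.0741 without Mettl14cKO SNLD1 library 1) and Fam107a in 10 of the repeats (at most 0.0561 without Mettl14cKO naive library 2), and the others in all 12.

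Among the lower genes, Lyrm7, an assembly factor of respiratory complex III, had 8.70, 11.4 and 8.42 CPM in Mettl14cKO against 22.1, 8.01 and 23.8 CPM in WT ganglia at SNLD1, and 7.62, 4.54 and 3.23 CPM in Mettl14cKO against 13.4, 15.3 and 26.8 CPM in WT in naive ganglia. WT SNLD1 library 2 lay below the Mettl14cKO libraries of its condition. Its log2 difference was -1.37 ± 0.28 (adjusted p = 0.00936, 12 of 12 repeats). Ogg1, a glycosylase that removes oxidised guanine from DNA, ran between 4.71 and 6.70 CPM in Mettl14cKO and between 8.01 and 15.7 CPM in WT (log2 difference -0.92 ± 0.19, adjusted p = 0.00987, 12 of 12 repeats). Lrig2, a membrane regulator of growth factor receptors, ran between 11.7 and 23.0 CPM in Mettl14cKO and between 23.1 and 36.1 CPM in WT (log2 difference -0.85 ± 0.15, adjusted p = 0.00364, 12 of 12 repeats). Fut10, Mrgpra2b, 2310069G16Rik, Aox4, Lhpp, Adamts3 and Arhgap25 were lower too, with log2 differences between -1.21 and -0.87. Aox4 passed in 3 (at most 0.099 without Mettl14cKO SNLD1 library 1) and Adamts3 in 6 of the repeats (at most 0.0901 without WT naive library 1), Fut10 and Mrgpra2b in 11 (at most 0.0597 without WT SNLD1 library 3 and 0.052 without Mettl14cKO SNLD1 library 1), and the others in all 12. Mrgpra2b, Serpina3c and Cxx1b have close copies among which reads may be split.

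The genes called in both ways set the scale for these values. The largest among them at a mean of at least 5 CPM were AA465934, Gbp2b, Fn3krp, Fabp4, Dpep1 and Ntf3, higher, and 2610507I01Rik, Fcrls, Them5, Rbp7, Rlbp1 and Ccdc109b, lower; Fabp4 passed in 8 of 12 repeats (at most 0.0887 without WT SNLD1 library 3) and the others in 12. Fn3krp, a kinase of glycated proteins, ran between 14.2 and 24.3 CPM in Mettl14cKO and between 0.0967 and 1.38 CPM in WT. Ntf3, which encodes the neurotrophin NT-3, averaged 13.1 ± 2.31 CPM in Mettl14cKO and 3.06 ± 2.20 CPM in WT (SD, n = 6 each). Nrg1, the neuregulin that signals to Schwann cells, was the single call among 10 genes of its pathway, at 79.6 ± 18.6 CPM in Mettl14cKO and 27.1 ± 5.83 CPM in WT. Pam, the enzyme that amidates neuropeptides, had 43.3 ± 5.79 CPM in Mettl14cKO and 12.4 ± 1.70 CPM in WT. Of the 164 genes, 121 were called in 12 of 12 repeats, against 48 of the 175 higher and 34 of the 122 lower genes called only with 6 against 6.

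The 37 genes called with 3 against 3 alone show what the pooled comparison leaves out. Atf3, an injury-induced transcription factor, had 173, 197 and 163 CPM in Mettl14cKO against 380, 243 and 505 CPM in WT ganglia at SNLD1, and 14.2, 13.4 and 21.2 CPM in Mettl14cKO against 8.51, 9.41 and 11.1 CPM in WT in naive ganglia. The genotypes did not overlap in either condition and lay in opposite order. With 6 against 6 its log2 difference was -0.29 ± 0.27 (adjusted p = 0.645). The difference between its genotype effects had an unadjusted p of 3.43e-05 and an adjusted p of 0.228 over all genes. Msh6, a mismatch repair gene, Fam111a, Raph1 and Star were lower at SNLD1 and missed the threshold with 6 against 6 (adjusted p between 0.0539 and 0.259). Raph1 passed without both neutrophil-rich libraries (adjusted p = 0.0393).

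Genes called only with 6 against 6 carried miCLIP sites in 37.4% of higher and 41.3% of lower cases. At least 1 site of the naive or the SNL list lay in 65 of 174 annotated higher genes and in 50 of 121 lower genes, against 5766 of 13258 genes tested (43.5%). Among genes called in both ways the shares were 23.2% of 112 higher and 38.5% of 52 lower genes. The share with a site depends on the level of a gene, so it is given by quartile of mean CPM. From the lowest to the highest quartile it was 12.2%, 29.2%, 45.3% and 68.8% for the higher genes and 10%, 19.4%, 47.1% and 58.7% for the lower genes. For all genes tested it was 28.2%, 39.6%, 48.5% and 57.6%. In the first and second quartile the shares of the class were below those of all genes; this difference was not tested.

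**Figure D5:**
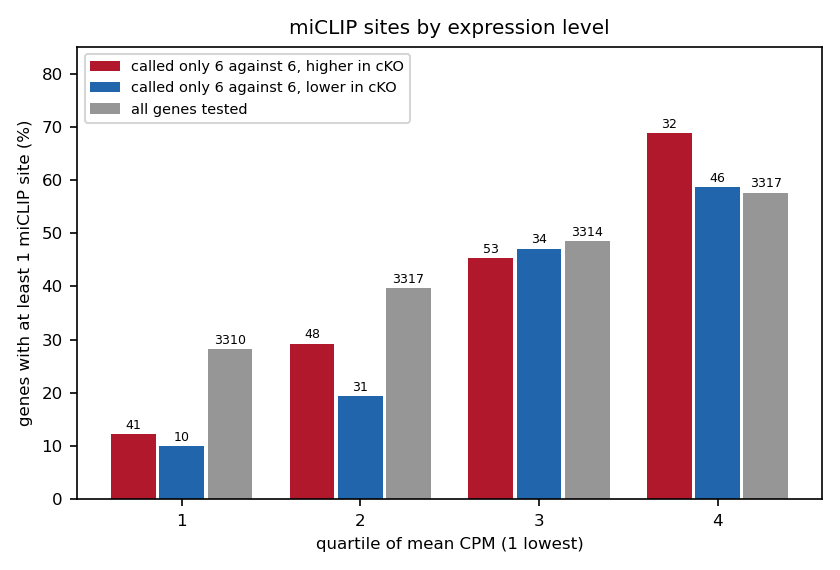
Percent of genes with at least 1 miCLIP site by quartile of mean CPM, for genes called only with 6 against 6 and higher (red) or lower (blue) in Mettl14cKO and for all genes tested (grey); numbers above the bars count genes. In the highest quartile the shares are 68.8%, 58.7% and 57.6%, and in the lowest 12.2%, 10% and 28.2%.

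Seen from the sites, 5766 tested genes with a site held 91 higher (1.58%) and 70 lower calls (1.21%), and 7492 without a site held 195 higher (2.60%) and 103 lower calls (1.37%). Their median log2 differences were -0.02 and 0.01. By quartile of level, from the lowest to the highest, genes with 4 or more sites were higher in 0.315%, 1.18%, 1.58% and 1.86% of cases, against 2.06%, 3.34%, 3.40% and 1.49% of genes without a site. They were lower in 0%, 0.197%, 0.792% and 2.66% of cases, against 0.421%, 1.90%, 1.70% and 1.85% of genes without a site. Genes with 4 or more sites thus had the smaller shares of calls in the lower 3 quartiles and the larger ones in the highest; this was not tested. Members of the class with many sites were Lynx1 (35 sites), Cnst (29), Nefm (28), Tro (27), Ret (24), Col28a1 (19) and Nefl (18). Of these, Tro was higher and the others lower in Mettl14cKO.

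Lynx1, a membrane-anchored modulator of nicotinic receptors, had 51.9, 54.8 and 54.6 CPM in Mettl14cKO against 88.6, 71.5 and 73.3 CPM in WT ganglia at SNLD1, and 67.6, 53.8 and 65.9 CPM in Mettl14cKO against 80.8, 72.4 and 102 CPM in WT in naive ganglia. The 6 libraries of each genotype did not overlap (log2 difference -0.49 ± 0.11, adjusted p = 0.0194, 9 of 12 repeats, at most 0.0661 without Mettl14cKO SNLD1 library 1). Cnst, a connexin-recycling protein, ran between 516 and 565 CPM in Mettl14cKO against 564 to 781 CPM in WT ganglia at SNLD1, and between 229 and 258 CPM in Mettl14cKO against 314 to 358 CPM in WT in naive ganglia (log2 difference -0.42 ± 0.10, adjusted p = 0.0268, 9 of 12 repeats, at most 0.0791 without the same library). Tro, a neuronal member of the MAGE family, was higher by 0.53 ± 0.12 (adjusted p = 0.0189, 7 of 12 repeats, at most 0.0609 without WT SNLD1 library 3), and Col28a1, a collagen of peripheral nerve, lower by 0.72 ± 0.17 (adjusted p = 0.0258, 7 of 12 repeats, at most 0.0574 without WT naive library 1).

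The m6A pulldown over input of WT ganglia (MeRIP-seq, 6 pulldown and 4 input libraries of 846785 to 19653733 counts) gave a second measure of the mark, independent of the calls. Genes called only with 6 against 6 had a median log2 ratio of 0.26 at SNLD1 and 0.05 in naive ganglia where higher, and of -0.13 and -0.54 where lower. All genes had 0.02 and -0.03. The ratio was not compared by a test, and it also varies with level.

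Calls were denser near Mettl14. Chromosome 3, which holds Mettl14, had 55 of 690 tested genes called with 6 against 6 (7.97%), against 1.96% to 4.96% on the other autosomes and X. Within 20 Mb of Mettl14, 28 of 191 genes were called (14.7%), Mettl14 itself included, 18 of them only with 6 against 6 (9.42%), 9 higher and 9 lower. The rest of chromosome 3 had 27 of 499 genes called (5.41%) and the other chromosomes 406 of 12601 (3.22%). Of the genes described above, Ugt8a lies 2.52 Mb from Mettl14, Ccdc109b 6.57 Mb, Lrig2 18.9 Mb, and Gbp2b and Gbp3 19.2 Mb. The distance was chosen after the calls were seen.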

How the data were processed

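RNA-seq counts per gene symbol for 12 libraries of L4/5 ganglia, and counts for 10 WT MeRIP-seq libraries, were used as the authors deposited them. The miCLIP lists, also deposited, give per site a score column that equals mutated reads divided by reads over the base, from 1 WT library per condition. Poly(A) RNA and the Smart-seq2 protocol were used per the labels' protocols. Trimmomatic, STAR, DESeq2 and the mm10 build are listed in the submitters' processing notes; neither the counter nor its use of strand is given in the sources used here, nor is the caller of the sites. Reads of overlapping genes, antisense genes and close copies may therefore be mixed.

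Genes were kept by filterByExpr over the 4 groups (13291 of 24421), scaled by TMM and tested with the quasi-likelihood test of edgeR 4.0.16 (R 4.3.3) in a model of condition plus genotype. P-values were Benjamini-Hochberg adjusted over all genes; 0.05 was the threshold for a call. The 3 against 3 comparisons and their difference came from a model of 4 groups over all 12 libraries, which share 1 estimate of spread. limma 3.58.1 (voom) and DESeq2 1.42.0 were run as alternatives. Sites were assigned to GRCm38.p6 gene spans on the gene's strand, or on either strand for 6184 symbols with none. CPM values are TMM-scaled.

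Named genes were the m6A machinery; among genes called only with 6 against 6 at a mean of at least 5 CPM, the 12 per direction of largest change and the next 6 of smallest p; the 6 per direction of largest change among those called in both ways; the 8 with most sites; the called members of each list, or the member of smallest p; and 5 genes called only with 3 against 3. Some genes that this rule names are not reported here. The lower genes of smallest p include some named for a list. Members and lists were chosen with earlier results of these data known.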

Additional observations from a re-analysis of the deposited data

Results flagged for a closer look

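Of 286 groups of 6 libraries examined (143 genes, both genotypes), 18 had 1 library far from the other 5; chance gives about 1 in 20 groups. Mettl14cKO naive library 1 was such a library for Cmtm5 (67.8 CPM, next 40.5), Cyp2d22 (14.3, next 20), Lbh (5.68, next 11.2), Mrgpra2b (16.4, next 6.59) and Slc7a5 (4.93, next 3.37). Mettl14cKO naive library 2 stood apart for Aspa (50.3 CPM), and Mettl14cKO naive library 3 for Hnrnpc (333 CPM) and Rnmtl1 (13.4 CPM). At SNLD1, Mettl14cKO library 1 stood apart for Ccl28 (0.355 CPM), and library 3 for 2310069G16Rik (1.82 CPM) and Fgf21 (3.09 CPM). Among WT libraries, naive library 2 stood apart for Eif1 (62.2 CPM) and Gabra4 (6.14 CPM), and naive library 3 for 2310069G16Rik (9.88 CPM) and Ythdc2 (11.8 CPM). WT SNLD1 library 1 stood apart for Ncmap (68.5 CPM) and Pdgfra (4.91 CPM), and library 3 for Mrgpra2b (10.9 CPM). Atf3 had its genotypes fully separated in opposite directions, with log2 differences of -1.08 in SNLD1 and 0.76 in naive ganglia; the difference between these effects had an adjusted p of 0.228 in edgeR.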

How the results depend on the processing

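With no filter on low counts, 467 genes were higher and 338 lower in Mettl14cKO, against 287 and 174 as reported. DESeq2 called 277 lower genes, and a model with no condition term 108. With each 3 against 3 comparison on its own 6 libraries, SNLD1 gave 77 higher genes. Leaving out both neutrophil-rich WT libraries, an alternative chosen after seeing the data, gave 265 lower genes and 276 higher and 221 lower genes only with 6 against 6. With 1 library left out at a time, 160 to 305 genes were higher and 76 to 242 lower, and 107 to 184 higher and 65 to 179 lower only with 6 against 6. The higher count moved by over 1.5 times without WT SNLD1 library 1 (182), WT SNLD1 library 3 (172) or Mettl14cKO SNLD1 library 1 (160). The lower count did so without WT naive library 1 (98), WT SNLD1 library 3 (94), Mettl14cKO SNLD1 library 1 (76) or library 2 (112). Only with 6 against 6, the higher count did so without WT naive library 1 (107) or Mettl14cKO naive library 2 (108), and the lower count without WT naive library 1 (66), WT SNLD1 library 3 (79), Mettl14cKO naive library 2 (77) or Mettl14cKO SNLD1 library 1 (65). Shares of genes with a site fell to 7.47% of higher and 14% of lower genes for sites in both lists, and to 0.575% and 4.13% with 3 or more mutated reads. For all genes tested, the shares fell to 11.6% and 2.39% in these settings. The cause of these shifts was not tested. Same-numbered Mettl14cKO and WT libraries of a condition correlated at -0.083 to 0.206 in their deviations from the group mean. Library 2 had the highest summed neutrophil level of every group (WT 1970 and Mettl14cKO 998 CPM at SNLD1, WT 1700 and Mettl14cKO 413 CPM naive). Whether replicate numbers pair libraries is thus not settled. The replicate block with numbers shared over the groups gave 366 higher and 233 lower genes, and within condition 282 and 168. Of the 297 genes, limma-voom called 240, DESeq2 292 and a fit with Y-linked level as covariate 237. No named value changed sign while called.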
